A study of Mus musculus with 42 samples.

Results

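8 X-linked genes whose products bind or process RNA were followed in allele-resolved RNA-seq of mouse embryos: Hnrnph2, Fmr1, Las1l, Rbmx, Gnl3l, Nxt2, Rbm10 and Dkc1. They were named as a group of RNA-binding and RNA-processing genes and not selected by a threshold on any value. The choice was made with earlier results of these data known, so their distance from other X-linked genes is a description. All 8 were listed in each of the 3 tables. These hold 24083 genes (stages and tissues), 23986 genes (morulae with a deletion and their controls) and 1052 X-linked genes (EedmNull embryos). Each table gave the maternal and the paternal allele separately in FPKM, the number of fragments per kilobase of transcript relative to library size.

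Of 42 samples in all, the morula table held 4 female morulae labelled Xp XRRa KO (KO morulae), in which the region that the labels name XRRa is deleted from the paternal X, 3 control female morulae and 4 control male morulae. The EedmNull table held 13 female E7.5 extraembryonic ectoderm samples, labelled embryo 1 to 13, from Eedfl/fl;Gdf9-Cre mothers and wild-type PWK/PhJ fathers. Gdf9-Cre deletes the floxed gene in the oocyte, so these embryos lack maternal Eed, a core subunit of Polycomb repressive complex PRC2, and inherit a functional paternal copy; the table has no wild-type group. All samples of the stage table were labelled female, and it covered 3 samples of 8-cell embryos and 3 of morulae. From E3.5 blastocysts there were 2 samples of the inner cell mass (ICM) and 3 of the trophectoderm, and from E6.5 embryos 1 of the epiblast, 3 of the visceral endoderm and 2 of the extraembryonic ectoderm. Yolk sac at E9.5 had 1 sample. Mothers were C57BL/6N and fathers PWK/PhJ in the stage and morula tables, and since no reciprocal cross was used here, strain and parental origin cannot be told apart. In those tables the authors pooled each group into 1 column per allele, so no spread between samples could be computed and no difference between columns was tested. Read depth was unknown, because no counts were listed.

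In female mouse embryos the paternal X chromosome is inactivated first, during cleavage, and stays silent in the trophectoderm and primitive endoderm lineages. Cells of the epiblast reactivate it and later inactivate either X at random. The long noncoding RNA Xist coats the X chromosome that it silences, and PRC2 places a repressive histone mark on it. The 8 genes sit on that chromosome and serve general steps of RNA metabolism. Hnrnph2 encodes a splicing regulator that binds G-rich RNA, Rbmx a nuclear RNA-binding protein and Rbm10 a regulator of alternative splicing. Las1l encodes the endonuclease that cuts the ITS2 spacer of pre-ribosomal RNA, Dkc1 the pseudouridine synthase of box H/ACA ribonucleoproteins, which also stabilizes telomerase RNA, and Gnl3l a nucleolar GTPase. Nxt2 encodes a partner of the mRNA export receptors, and Fmr1 the translational regulator FMRP, which is lost in fragile X syndrome.

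All 8 genes were listed above 0 in both the preimplantation and the E6.5 columns, with Dkc1 at the top. Total FPKM of Dkc1 (both alleles summed) was 131 in 8-cell embryos, 163 in morulae, 135 in ICM, 66.0 in trophectoderm, 153 in epiblast, 43.7 in visceral endoderm, 112 in the extraembryonic ectoderm and 13.6 in yolk sac. Its level was thus lowest, outside the sparse yolk sac sample, in visceral endoderm and trophectoderm. Hnrnph2 had 33.8, 49.6, 29.7, 39.3, 37.8, 21.5, 38.2 and 13.9 FPKM in the same order of columns. Las1l had 26.5, 37.4, 33.8, 26.5, 21.2, 15.1, 39.2 and 7.31 FPKM. Both varied less than 3-fold between the 7 columns without yolk sac, with visceral endoderm lowest for each. Fmr1 was lowest in morulae, at 5.39 FPKM, and highest in extraembryonic ectoderm, at 17.1 FPKM, and it was listed at 0 in yolk sac. Among the other 4 genes, Gnl3l ranged between 6.73 FPKM in trophectoderm and 42.9 FPKM in 8-cell embryos. Outside yolk sac, where it was listed at 0, Nxt2 ranged between 1.07 FPKM in trophectoderm and 9.72 FPKM in 8-cell embryos. Rbm10 had 4.26 FPKM in 8-cell embryos and between 11.6 and 19.3 FPKM in the later columns, yolk sac aside. Rbmx had 7.56 FPKM in 8-cell embryos, 4.39 FPKM in yolk sac and between 11.5 and 21.4 FPKM in the others. The bars of maternal and paternal FPKM by stage show these levels.

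**Figure D1:**
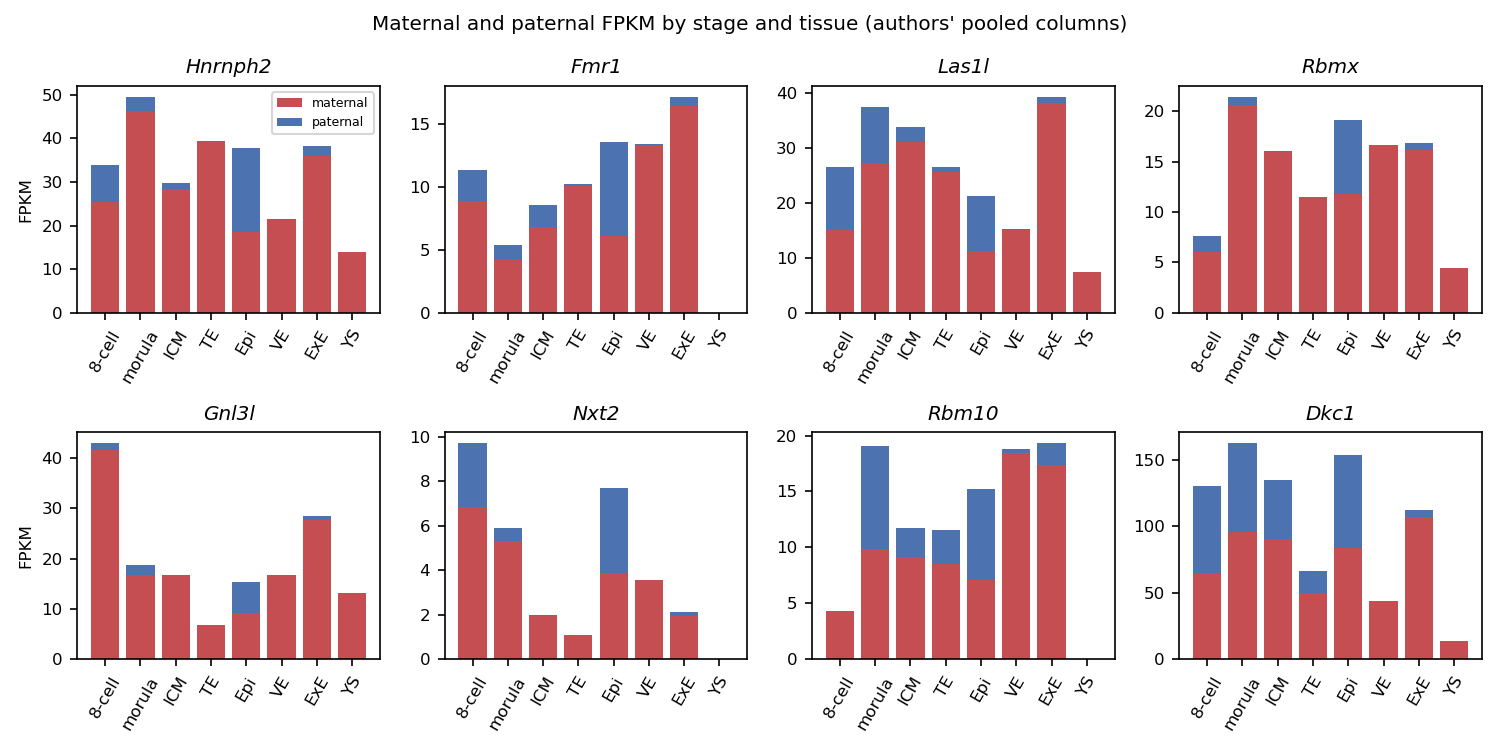
Stacked bars give maternal and paternal FPKM of each gene (y axes, separate linear scales) in the 8 columns of the stage table (x axis; ICM, inner cell mass; TE, trophectoderm; Epi, epiblast; VE, visceral endoderm; ExE, extraembryonic ectoderm; YS, yolk sac). The paternal part is visible for all 8 genes in epiblast; Dkc1 reaches 163 FPKM in morulae, and Fmr1, Nxt2 and Rbm10 are listed at 0 in yolk sac.

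A difference in total level was called by size alone, at no less than 5 FPKM in 1 of the columns and a ratio of 2 or more on FPKM + 1. In morulae against 8-cell embryos, Rbmx (log2 ratio 1.39) and Rbm10 (1.93) were higher and Gnl3l (-1.15) was lower; the same rule called 31.9% of all genes higher and 6.21% lower, and the median log2 ratio of all genes was 0.49. In trophectoderm against morulae, Gnl3l (-1.36), Nxt2 (-1.74) and Dkc1 (-1.29) were lower, beside 17.3% of all genes. In ICM against morulae Nxt2 (-1.21) was lower, beside 10.4% of all genes. In ICM against trophectoderm, Gnl3l (1.20) and Dkc1 (1.02) were higher, beside 13% of all genes. At E6.5, Dkc1 was lower in visceral endoderm than in epiblast (-1.79; 18.7% of all genes), and Nxt2 was lower in extraembryonic ectoderm than in epiblast (-1.49; 6.25%). Las1l (-1.32) and Dkc1 (-1.34) were lower in visceral endoderm than in extraembryonic ectoderm, where 26.6% of all genes were. After columns were scaled to the median autosomal gene, the 2 visceral endoderm values were -0.86 for Las1l and -0.87 for Dkc1, the ICM value of Dkc1 was 0.92, and none of these 3 kept the call; Fmr1 then gained one, lower in morulae than in 8-cell embryos (-1.19 scaled, -0.95 unscaled).

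In each preimplantation column and each extraembryonic E6.5 column the median paternal share of the 8 genes, the paternal FPKM over the sum of both alleles, lay below that of all X-linked genes. The share was read where that sum was at least 1 FPKM. The median of the 8 was 23.3% in 8-cell embryos (42.6% over 259 X-linked genes), 15.9% in morulae (26.1%), 6.35% in ICM (8.33%) and 0.707% in trophectoderm (4.42%). At E6.5 it was 48.2% in the 1 epiblast sample (47.8%), 0.482% in visceral endoderm (0.606%) and 4.42% in extraembryonic ectoderm (4.78%). Autosomal medians lay between 46.8% and 50% in the 8 columns. In yolk sac, 5 genes reached the minimum and all 5 had a share of 0%, as had the median of 145 X-linked genes. Single genes were poorly read there, since 8 measured autosomal partners and relatives ran from 0% to 100% and only 1 of them lay between 30 and 70%.

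The genes differed in how early the paternal share was low. A share also falls where the maternal level is high, and RNA kept from the oocyte was not told apart from that of the embryo. Hnrnph2 had a paternal share of 25.2% in 8-cell embryos, 6.63% in morulae, 4.80% in ICM, 0.474% in trophectoderm, then 51.3% in epiblast, and 0.607% in visceral endoderm against 5.64% in extraembryonic ectoderm. Rbmx had 20%, 3.74%, 0.529%, 0%, 38.5%, 0.0746% and 4.33% in the same columns. Gnl3l had 3.33% in 8-cell embryos, where it was at its highest total level, 11.2% in morulae, 0.139% in ICM and 0% in trophectoderm. Nxt2 had 29.4%, 10.3%, 3.45% and 0% in these 4 columns, the last 2 at totals of only 1.99 and 1.07 FPKM. These 4 genes were therefore at 11.2% or less in morulae and at 5% or less in both lineages of the blastocyst.

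Dkc1 and Rbm10 formed the other end. Dkc1 had a paternal share of 50.4% in 8-cell embryos, 41.2% in morulae, 33.1% in ICM and 24.7% in trophectoderm, then 0.460% in visceral endoderm and 4.51% in extraembryonic ectoderm. Rbm10 had 48.5% in morulae, 21.9% in ICM and 26.7% in trophectoderm, then 1.99% and 9.90% in the 2 extraembryonic tissues. Its 8-cell share was 0% at 4.26 FPKM, and a 0 at a low level can also come from few reads that tell the alleles apart. Las1l lay near the X-linked median in the preimplantation columns, with 43.2%, 26.9%, 7.90% and 3.36% from the 8-cell stage to trophectoderm. Fmr1 had close to the same share in 8-cell embryos (21.4%), morulae (20.7%) and ICM (20.1%), against 0.940% in trophectoderm. By E6.5 these differences were small in visceral endoderm, where the 8 shares lay between 0% and 1.99%. In epiblast they lay between 38.5% for Rbmx and 55.2% for Fmr1.

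**Figure D2:**
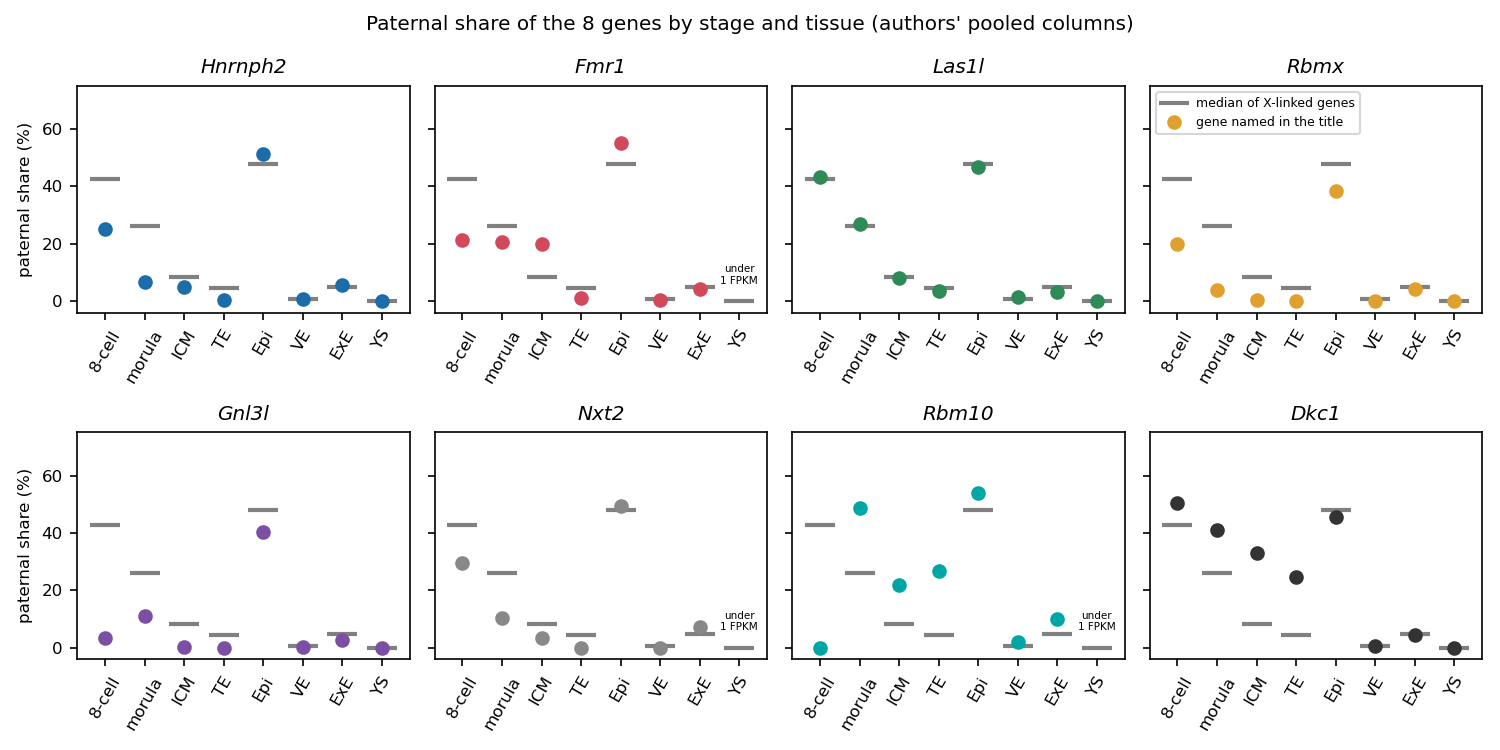
Points give the paternal share of each gene (percent, y axis) in the 8 columns of the stage table (x axis, abbreviations as for the levels), and grey lines the median of all X-linked genes; genes under 1 FPKM have no point. Dkc1 and Rbm10 lie above the grey line in ICM and trophectoderm, Hnrnph2 and Rbmx below it in 8-cell embryos and morulae, and all 8 are between 38.5% and 55.2% in epiblast.

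The genes with the nearest profile over 8-cell, morula, ICM, trophectoderm, visceral endoderm and extraembryonic ectoderm were taken among 181 X-linked genes measured in all 6 columns, by the mean absolute difference in share. For Hnrnph2 they were Rbmx2 (1.39 points) and Morf4l2 (1.62 points), and for Las1l Amot (1.28 points) and Cenpi (1.99 points). For Fmr1 they were Sat1 (2.51 points) and Chm (3.23 points), and for Dkc1 Huwe1 (2.73 points) and Pdha1 (3.57 points). The columns are shared by all genes, so these distances are a description.

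Autosomal partners and relatives of the 8 genes, a list of 21, showed the level at which an allele-balanced gene was read. Their median paternal share lay between 46.4% and 51.4% in the 7 columns without yolk sac. Hnrnph1 and Hnrnpf, close relatives of Hnrnph2, had 49.8% and 34.7% in morulae, where Hnrnph2 had 6.63%. Fxr1, a relative of Fmr1, had 55.3% in trophectoderm, where Fmr1 had 0.940%. Gnl3, the paralogue of Gnl3l that encodes nucleostemin, had 50% in 8-cell embryos, where Gnl3l had 3.33%. Rbmxl1, an intronless relative of Rbmx, had 99.3 FPKM in morulae, against 21.4 FPKM for Rbmx, and a share of 49.2%; reads shared by these similar sequences could be assigned to either, so both levels are uncertain. The H/ACA partners Nop10 and Nhp2 had 52.1% and 60.5% in morulae, against 41.2% for Dkc1. The spread of single genes was wide, with Senp3, a partner of Las1l, at 0% in control female morulae at a total of 18.4 FPKM.

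In KO morulae the paternal alleles of these genes were higher than in control female morulae. Hnrnph2 had 25.4 FPKM from the paternal allele in KO morulae, 1.99 FPKM in control females and 0 in control males, who carry no paternal X. Its maternal allele had 18.6 FPKM in KO, 17.9 FPKM in control female and 15.6 FPKM in control male morulae. The paternal allele thus went beyond the maternal one in the deleted embryos, while the maternal allele was nearly level across the 3 groups. Paternal Fmr1 was 6.07 FPKM in KO, 0.513 FPKM in control female and 0 in control male morulae, and maternal Fmr1 5.0 FPKM in KO, 4.34 FPKM in control female and 5.47 FPKM in control male morulae. Paternal Nxt2 was 7.16 FPKM in KO, 0.544 FPKM in control female and 0 in control male morulae, and maternal Nxt2 3.49 FPKM in KO, 3.06 FPKM in control female and 3.45 FPKM in control male morulae. For both, as for Hnrnph2, the total in KO morulae was more than 2-fold that of either control.

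Paternal Las1l was 15.3 FPKM in KO, 4.27 FPKM in control female and 0.0356 FPKM in control male morulae, and maternal Las1l 10.8 FPKM in KO, 6.01 FPKM in control female and 13.2 FPKM in control male morulae. Paternal Rbmx was 6.70 FPKM in KO, 1.22 FPKM in control female and 0 in control male morulae. Maternal Rbmx was lower in KO (12.1 FPKM) than in control female (17.2 FPKM) and control male morulae (14.7 FPKM), so that its total was nearly the same in KO (18.8 FPKM) and control female morulae (18.4 FPKM). Gnl3l, a low gene here, had 3.19 paternal FPKM in KO, 0.152 in control female and 0 in control male morulae. Rbm10 had 12.4 paternal FPKM in KO, 5.87 in control female and 0 in control male morulae, and 3.88 maternal FPKM in KO, 4.62 in control female and 8.94 in control male morulae. Paternal Dkc1 was 75 FPKM in KO, 46.9 FPKM in control female and 0.361 FPKM in control male morulae, and maternal Dkc1 56.0 FPKM in KO, 49.5 FPKM in control female and 65.8 FPKM in control male morulae. Of the 8 genes, Dkc1 and Rbm10 had the alleles nearest to equal in control females.

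**Figure D3:**
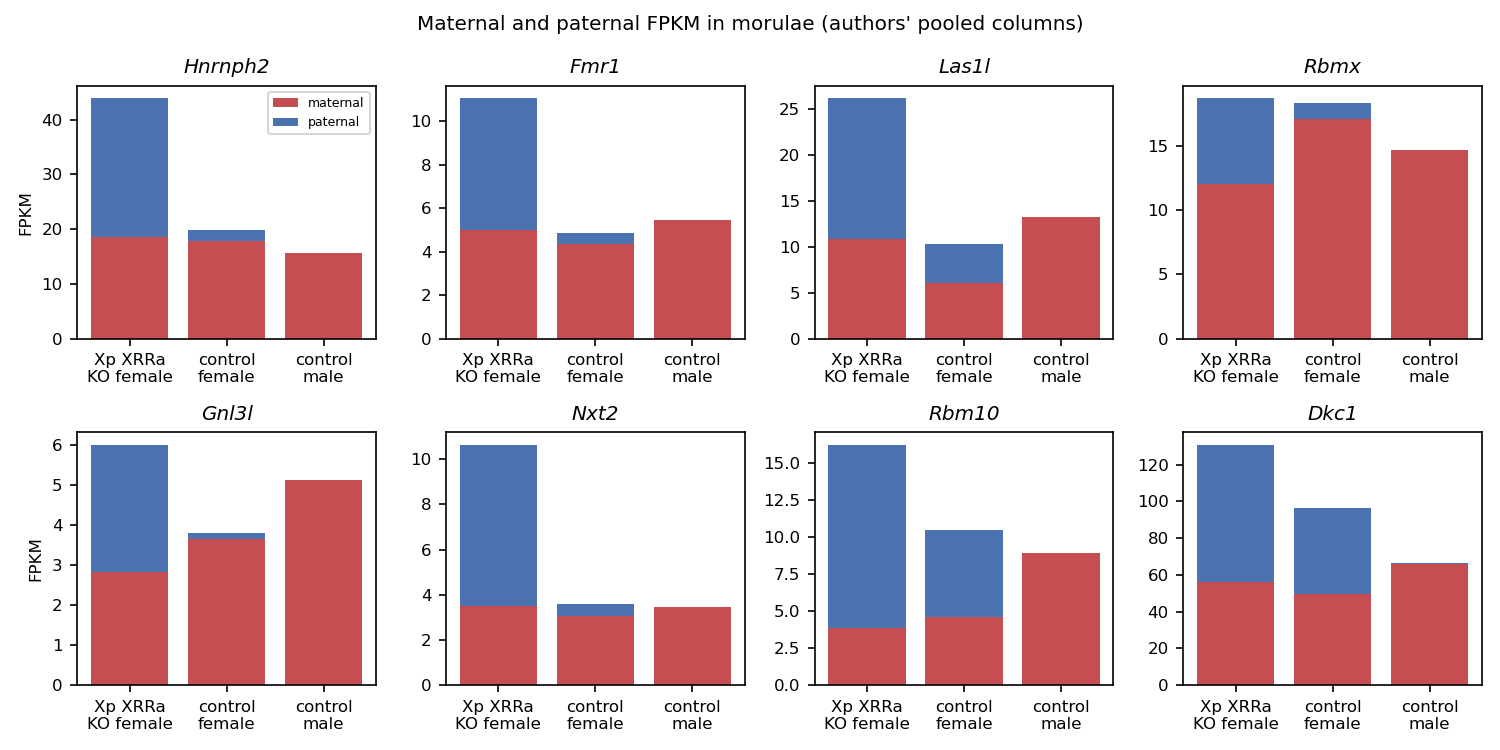
Stacked bars give maternal and paternal FPKM (y axes, separate linear scales) of each gene in Xp XRRa KO female, control female and control male morulae (x axis, 1 pooled column each, so no error bars). Paternal Hnrnph2 is 25.4 FPKM in Xp XRRa KO, 1.99 FPKM in control female and 0 in control male morulae, and Rbmx is the 1 gene whose total is nearly level between the 2 female groups (18.8 and 18.4 FPKM).

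By the rule of size, the paternal allele was higher in KO than in control female morulae for 5 of the 7 genes that reached 5 FPKM in 1 column, Hnrnph2 (log2 ratio 3.14), Nxt2 (2.40), Fmr1 (2.22), Rbmx (1.80) and Las1l (1.63). The rule called 46.8% of 141 X-linked genes and 4% of autosomal genes higher. The 2 that reached 5 FPKM without the call were Rbm10 (0.96) and Dkc1 (0.67), and Gnl3l (1.86) stayed under 5 FPKM. All 5 called genes reached the minimum in KO morulae alone, with 0.513 to 4.27 paternal FPKM in control females, whereas Rbm10 and Dkc1 reached it in both groups. A gene low in control females could enter only by being high in KO morulae, so 5 of 7 is a description and not support. The median log2 ratio of the 8 genes was 1.83, against 0.93 over X-linked and 0.01 over autosomal genes that reached 5 FPKM. From the maternal allele, 4 genes reached 5 FPKM in 1 of the female columns and none of them was called in either direction, beside 17.2% of X-linked genes called lower and 5.22% higher. In total level, Nxt2 (1.34), Las1l (1.27), Hnrnph2 (1.11) and Fmr1 (1.04) of the 8 genes were higher, beside 15.1% of 186 X-linked genes. Here too Nxt2 (3.61 FPKM in control females) and Fmr1 (4.85 FPKM) reached the minimum in KO morulae alone. Over the 8 genes together, the paternal alleles summed to 151 FPKM in KO, 61.4 FPKM in control female and 0.397 FPKM in control male morulae, and the maternal alleles to 113 FPKM in KO, 106 FPKM in control female and 132 FPKM in control male morulae. Dkc1 makes up a large part of each sum.

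As a share, the paternal allele of all 8 genes was higher in KO than in control female morulae, as it was for 88.4% of 242 X-linked and 50.8% of autosomal genes. The largest differences were those of Nxt2 (67.3% in KO, 15.1% in control females), Gnl3l (53.2% in KO, 4.03% in control females), Hnrnph2 (57.7% in KO, 10% in control females) and Fmr1 (54.9% in KO, 10.6% in control females). Rbmx had 35.7% in KO and 6.62% in control females, and Las1l 58.7% in KO and 41.5% in control females. Rbm10 had 76.2% in KO and 56.0% in control females, and Dkc1 57.3% in KO and 48.7% in control females. The difference of Dkc1, 8.61 points, was exceeded by 183 of the 242 X-linked genes, and that of Hnrnph2, 47.7 points, by 30. The median difference was 36.7 points over the 8 genes, 20.8 points over X-linked genes and 0.155 points over autosomal genes. At a total of at least 5 FPKM in both groups, which leaves out Fmr1, Gnl3l and Nxt2, it was 20.2 points over the other 5 genes and 17.6 points over 143 X-linked genes, so most of the distance from the X-linked median rested on those 3 low genes. The 4 genes with the largest differences, and Rbmx, stood at no more than 15.1% in control females. With the stage table's 3 morulae in place of the control females, all 8 shares were again higher in KO morulae, by 16.1 points for Dkc1 to 57 points for Nxt2. The median difference was then 33.1 points over the 8 genes and 24.6 points over 234 X-linked genes. Unmodified morulae themselves varied: Las1l had 41.5% in the control females and 26.9% in the morulae of the stage table, and Fmr1 10.6% in the control females and 20.7% in the morulae of the stage table. Xist had 7.44 paternal and 24.7 maternal FPKM in KO morulae, against 19.5 paternal and 9.15 maternal FPKM in control females; its part in the result was not tested.

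The nearest measured neighbours on the chromosome mostly stood higher as well, as did 88.4% of 242 X-linked genes. Gla, beside Hnrnph2, had a share of 54.2% in KO and 14.9% in control female morulae, and Fmr1nb, beside Fmr1, 51.1% in KO and 19.4% in control females. Beside Rbm10, Ndufb11 had 52.1% in KO and 45.1% in control females, and Uba1 53.7% in KO and 46.8% in control females. Mpp1, near Dkc1, had 46.3% in KO and 31.6% in control females, and Tsr2, near Gnl3l, 45.5% in KO and 29.2% in control females. Msn, near Las1l, had 42.4% in KO and 13.4% in control females. Gm5643, beside Nxt2, had 67.5% in KO, 80.7% in control female and 75% in control male morulae, and 1700010D01Rik, near Las1l, 56.6% in control males, so the paternal calls of both were not read as a paternal X. Gm364, near Rbmx, had 98.9% in KO and 88.1% in control females. Annotated overlaps exist for Las1l with Zc3h12b, for Rbm10 with Ndufb11 and for Dkc1 with Mpp1, and the libraries did not mark strand by the protocol in the labels, so reads in the overlaps could belong to either gene.

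Among 31 other X-linked genes of RNA processing, 21 had a share in both groups. All 21 were higher in KO morulae, beside 88.4% of 242 X-linked genes, with a median difference of 16.3 points. By FPKM, 8 of the 18 that reached 5 FPKM were called higher from the paternal allele, a share near the 46.8% of all X-linked genes, and the median difference lay below the 20.8 points of all X-linked genes. The largest share differences at 5 FPKM or more were those of Htatsf1 (79.5% in KO, 36.9% in control females), a splicing cofactor, Phf6 (52.3% in KO, 16.6% in control females), a nucleolar chromatin protein, and Cstf2 (59.5% in KO, 29.5% in control females), a cleavage and polyadenylation factor. The smallest were those of Ftsj1 (58.4% in KO, 51.1% in control females), a tRNA methyltransferase, Gpkow (71.4% in KO, 63.6% in control females) and Utp14a (54.6% in KO, 45.4% in control females), a ribosome biogenesis factor. The autosomal partners and relatives had a median difference of -1.95 points, with 8 of 20 higher, beside 50.8% of autosomal genes.

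The promoter sequences of Hnrnph2, Fmr1, Las1l and Dkc1, the 4 genes whose alleles are plotted by EedmNull embryo, are shown as examples of genes with the call in KO morulae (the first 3) and without it (Dkc1). They are the RefSeq windows of mouse build GRCm38.p6, 250 bases before to 50 bases after the start, at chrX:134600929-134601228 (plus strand), chrX:68678291-68678590 (plus), chrX:95956854-95957153 (minus) and chrX:75095604-75095903 (plus); 7 of the 8 genes matched an entry, all but Gnl3l, and the most upstream of 2 windows was taken for Fmr1. Capitals mark the E-box CACGTG and the CCAAT box (ATTGG where it lies on the other strand).
Hnrnph2: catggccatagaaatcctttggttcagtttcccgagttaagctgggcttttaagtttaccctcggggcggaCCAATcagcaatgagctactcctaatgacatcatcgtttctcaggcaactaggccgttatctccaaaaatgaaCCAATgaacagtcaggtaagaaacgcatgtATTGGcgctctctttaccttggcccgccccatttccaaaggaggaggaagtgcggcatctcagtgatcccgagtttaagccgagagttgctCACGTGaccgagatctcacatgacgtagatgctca
Fmr1: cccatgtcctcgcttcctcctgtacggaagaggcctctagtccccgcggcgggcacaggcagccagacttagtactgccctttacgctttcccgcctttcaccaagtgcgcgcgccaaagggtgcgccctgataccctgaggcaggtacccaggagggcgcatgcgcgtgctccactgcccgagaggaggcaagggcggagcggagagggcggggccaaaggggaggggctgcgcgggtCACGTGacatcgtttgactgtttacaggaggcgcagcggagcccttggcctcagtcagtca
Las1l: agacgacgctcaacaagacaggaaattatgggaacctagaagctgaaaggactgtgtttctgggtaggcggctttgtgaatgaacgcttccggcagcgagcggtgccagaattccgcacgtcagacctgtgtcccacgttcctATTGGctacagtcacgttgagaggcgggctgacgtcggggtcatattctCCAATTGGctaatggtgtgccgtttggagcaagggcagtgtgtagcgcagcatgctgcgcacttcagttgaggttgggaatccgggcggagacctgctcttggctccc
Dkc1: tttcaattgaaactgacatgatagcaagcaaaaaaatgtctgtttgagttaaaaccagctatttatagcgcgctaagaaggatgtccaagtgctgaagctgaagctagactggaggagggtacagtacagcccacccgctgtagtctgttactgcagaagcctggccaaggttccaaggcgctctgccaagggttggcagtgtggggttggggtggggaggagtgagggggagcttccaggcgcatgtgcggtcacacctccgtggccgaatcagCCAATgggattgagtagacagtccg
The Hnrnph2 window holds 1 E-box and 3 CCAAT boxes, that of Las1l 3 CCAAT boxes, of which 2 overlap, that of Dkc1 1 CCAAT box, and that of Fmr1 1 E-box and no CCAAT box. Over 32851 windows of the same length, 7.15% held CACGTG, which reads the same on both strands, and 37.4% held CCAAT on either strand. Over the 1223 X-linked windows among them these shares were 8.59% and 45.0%. The number of CG pairs was 14 for Hnrnph2, 24 for Fmr1, 19 for Las1l and 9 for Dkc1, against a median of 7 per window. The windows not printed do not keep a split between called and uncalled genes: Nxt2 and Rbmx, both called, had 8 and 11 CG pairs and 1 CCAAT box each, while Rbm10, not called, had 22 CG pairs and no CCAAT box, and none of the 3 held the E-box.

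In EedmNull extraembryonic ectoderm the paternal share of the genes ran over nearly its whole range between embryos. Hnrnph2 had paternal shares of 0%, 13.3%, 2.09%, 0.391%, 5.62%, 17.4%, 35.8%, 47.3%, 39.2%, 31.8%, 55.8%, 49.2% and 75.7% in embryos 1 to 13. The median share of the X-linked genes in the same embryos was 0.474%, 20.5%, 6.44%, 0%, 6.87%, 24.7%, 44.1%, 55.6%, 48.5%, 37.0%, 62.2%, 52.6% and 80.4%. Embryos 1, 3, 4 and 5 were low for both, and embryo 13 was highest for both. Dkc1 had 0.833%, 18.6%, 2.31%, 0.269%, 6.18%, 26.3%, 43.1%, 56.7%, 49.7%, 40%, 69.9%, 58.7% and 90.5%. Las1l had 0%, 12.4%, 1.62%, 0%, 1.01%, 22.7%, 30%, 38.1%, 42.3%, 20.3%, 51.2%, 40.4% and 85.5%. Fmr1 had 1.19%, 15.9%, 2.5%, 0%, 2.63%, 15.1%, 42.4%, 53.2%, 52.9%, 25%, 58.9%, 65.4% and 84.4%. The 4 profiles thus rank the embryos almost alike, with embryos 1, 3, 4 and 5 at the bottom of each.

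Mean paternal shares were 28.7 ± 24.3% for Hnrnph2, 32.3 ± 28.7% for Fmr1, 26.6 ± 25.2% for Las1l, 33.3 ± 27.5% for Rbmx, 29.4 ± 25.4% for Gnl3l and 35.6 ± 29.2% for Dkc1 (SD, n = 13). Rbm10 had 36.9 ± 33.2% (SD, n = 12), since embryo 6 listed it at 0 for both alleles. Nxt2 reached 1 FPKM in embryo 12 alone and was left out of the tests. The differences between embryos were much larger than those between genes. In the wild-type E6.5 extraembryonic ectoderm column, from another table and an earlier day, the 8 shares lay between 2.76% and 9.90%; these values are set side by side without a comparison.

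Between embryos the paternal levels rose and the maternal levels fell with the paternal share of the chromosome, and no slope of a total passed. The total is the sum of both alleles and the way reads were assigned to them is not given in the sources used here, so the allele slopes, the total slope and the ratio slope below are not separate measurements. Hnrnph2 totals lay between 19.9 and 29.0 FPKM over the 13 embryos, Dkc1 totals between 57.3 and 85.8 FPKM and Fmr1 totals between 8.69 and 16.1 FPKM. Maternal Hnrnph2 was 5.48 FPKM in embryo 13, the lowest, and 28.1 FPKM in embryo 3, while paternal Hnrnph2 was 17.1 and 0.60 FPKM in these 2 embryos. In limma fits on the embryo's median log2 ratio over other X-linked genes, the paternal level of all 7 tested genes rose (88.7% of 300 X-linked genes) and the maternal level of all 7 fell (77.3%). For Hnrnph2 the paternal slope was 1.21 ± 0.09 and the maternal slope -0.45 ± 0.07 (log2 FPKM + 1 per log2 unit, SE), and for Dkc1 they were 1.64 ± 0.16 and -0.65 ± 0.10. The highest Benjamini-Hochberg adjusted p of the 7 in limma was 8.66e-06 for the paternal and 0.0276 for the maternal slopes. The slope of the total passed in limma for 0 of the 7 and 0 of the 300 genes, with 27 of the 300 at an unadjusted p under 0.05; the 7 slopes lay between -0.10 and 0.06, and adjusted p between 0.517 and 0.961. The maternal slope of Rbm10 did not pass in limma without embryo 1 (adjusted p = 0.0524), 4 (0.0728), 5 (0.0556) or 13 (0.0675), or with a pseudocount of 0.1 (0.137). These fits count embryo 6, where Rbm10 was listed at 0 for both alleles, as a value of 0; without that embryo the maternal slope was -0.62 ± 0.07 (SE, adjusted p = 5.26e-05, limma).

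**Figure D4:**
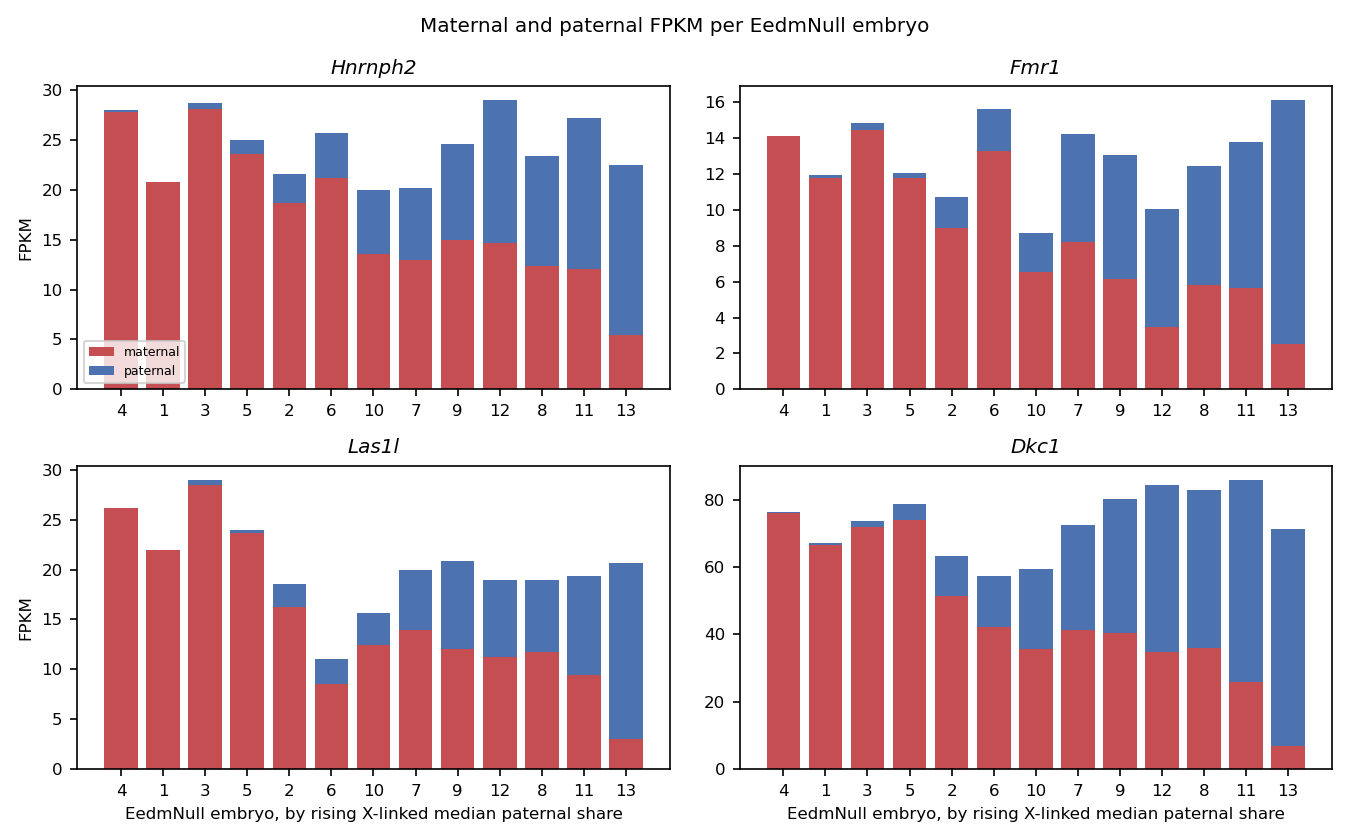
Stacked bars give maternal and paternal FPKM (y axes, separate linear scales) of Hnrnph2, Fmr1, Las1l and Dkc1 in each of the 13 EedmNull embryos, ordered on the x axis by the embryo's median X-linked paternal share. The paternal part grows and the maternal part shrinks along the axis, while Hnrnph2 totals stay between 19.9 and 29.0 FPKM and Dkc1 totals between 57.3 and 85.8 FPKM.

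The allele ratio itself, log2 of paternal over maternal FPKM + 1, averaged below 0 for all 7 genes, at -1.83 ± 0.60 for Las1l, -1.68 ± 0.57 for Hnrnph2, -1.50 ± 0.53 for Gnl3l and -1.47 ± 0.70 for Dkc1 (SE, n = 13, limma). None passed, with adjusted p from limma between 0.0792 and 0.138, and 2 of 300 X-linked genes passed (0.667%, both negative; 162 had an unadjusted p under 0.05). The lack of a call rested on embryo 13: without it, 6 of the 7 genes and 206 X-linked genes passed in limma, with Rbm10 the exception (adjusted p = 0.0524). For Rbm10, the fits of the ratio count embryo 6, listed at 0 for both alleles, as a ratio of 0. Without that embryo its mean ratio was -1.03 ± 0.59 (SE, adjusted p = 0.154, limma). The allele ratio moved with that of the chromosome for all 7 genes (93% of X-linked genes). Without embryo 6, Rbm10 had a slope of 1.75 ± 0.13 (SE). The slope was 2.29 ± 0.13 for Dkc1 and 1.41 ± 0.14 for Rbmx, with the other 5 between them (SE, n = 13; highest adjusted p 1.79e-07 in limma). The size of the slopes depended on the scale: with a pseudocount of 0.1 Dkc1 had 1.55, below 1.57 for Rbm10, and with no minimum the 7 slopes lay between 5.13 and 8.47. On the scale of shares all 7 slopes passed as well (95.7% of X-linked genes) and lay between 0.93 points per point for Hnrnph2 and 1.17 for Rbm10.

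Against the X chromosome of their own embryo, Las1l, Hnrnph2 and Gnl3l were lower. Their ratio minus the embryo's median ratio was -1.06 ± 0.26 for Las1l (adjusted p = 0.00976), -0.91 ± 0.23 for Hnrnph2 (adjusted p = 0.0101) and -0.74 ± 0.20 for Gnl3l (adjusted p = 0.0163; SE, n = 13, limma), beside 12% of X-linked genes called lower and 11.3% called higher. In shares, Hnrnph2 lay below the embryo median in 12 of 13 embryos (mean difference -5.05 points), Las1l in 11 of 13 (-7.19 points) and Gnl3l in 10 of 13 (-4.37 points), and the same 3 passed in limma (adjusted p = 0.00932 for Hnrnph2, 0.0143 for Las1l and 0.032 for Gnl3l), beside 9.3% of X-linked genes called lower and 10.1% called higher. Fmr1 (-0.48, adjusted p = 0.102), Rbmx (-0.31, 0.234), Rbm10 (-0.18, 0.620) and Dkc1 (-0.71, 0.188) did not pass in limma. The Rbm10 value counts embryo 6, listed at 0 for both alleles, as a ratio of 0. Without that embryo it was -0.27 (adjusted p = 0.476, limma). For Dkc1 the sign depended on the scale, since its share was 1.84 points above the embryo median on average (above in 9 of 13 embryos) while its log ratio was below. The 3 calls held when any 1 embryo was left out, with adjusted p up to 0.0239 for Hnrnph2, 0.0238 for Las1l and 0.0387 for Gnl3l in limma. With genes of any level above 0 in the fit and the median, the values were further from 0, at -1.63 for Las1l, -1.47 for Hnrnph2 and -1.30 for Gnl3l, and all 3 calls were lost (adjusted p = 0.0739 to 0.0845 in limma). Against a median over genes of at least 10 FPKM, the values were -0.60 for Las1l (adjusted p = 0.00766), -0.44 for Hnrnph2 (0.00864) and -0.27 for Gnl3l (0.0648, no longer called, limma). Without embryo 13, Fmr1 also passed (-0.58, adjusted p = 0.0365, limma).

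**Figure D5:**
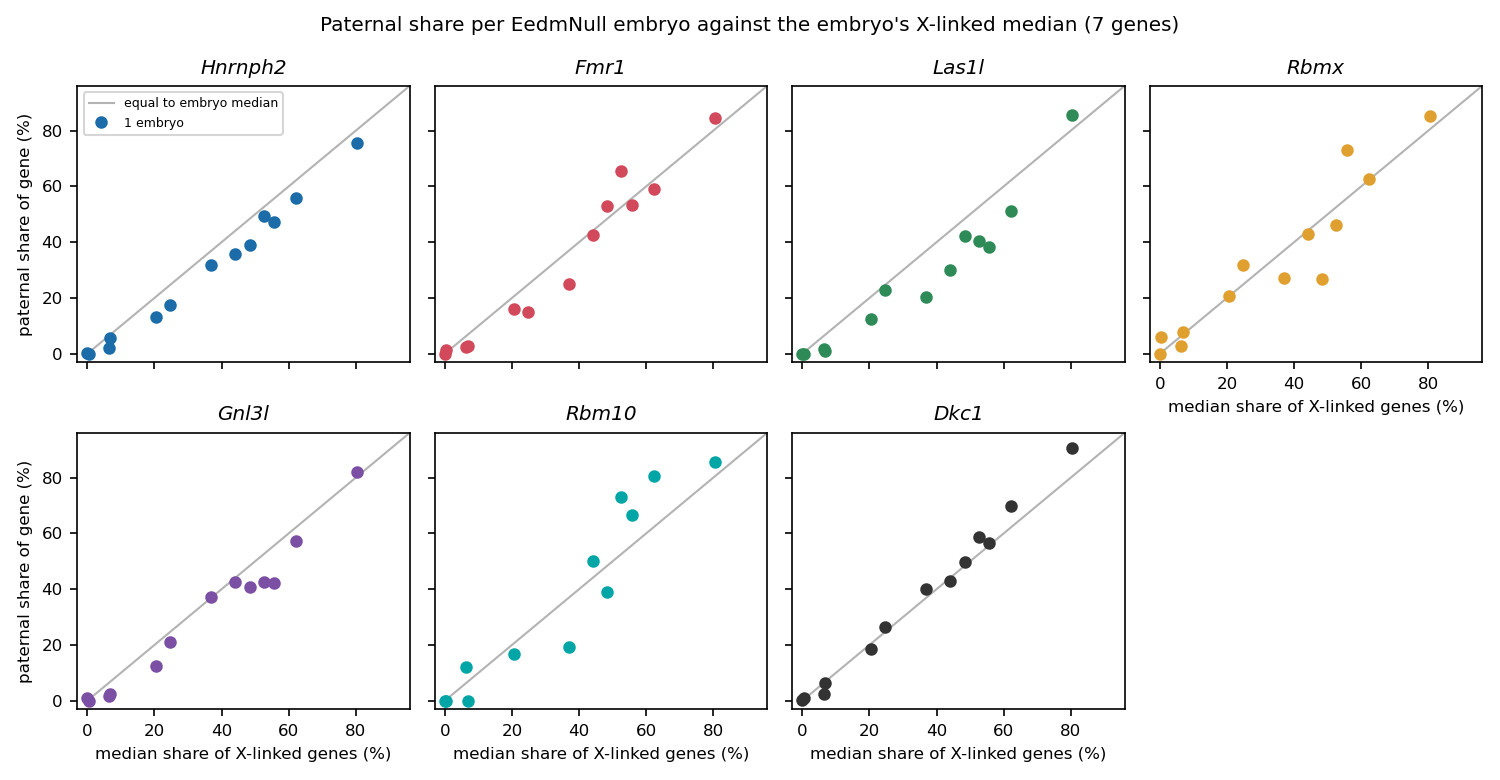
Points give, for each of the 13 EedmNull embryos (12 for Rbm10), the paternal share of the gene (percent, y axis) against the median share of X-linked genes in that embryo (percent, x axis); the grey line marks equality. Hnrnph2 lies below the line in 12 of 13 embryos and Las1l in 11 of 13, while Dkc1 lies above it in 9 of 13.

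Between the 7 genes, 21 pairs were compared by an exact sign flip permutation test over embryos (two-sided), and 3 passed after Benjamini-Hochberg adjustment. Dkc1 had a higher share than Las1l in 13 of 13 embryos, by 9.04 ± 7.57 points (SD, exact adjusted p = 0.00513, raw p = 0.000244, the smallest that 13 embryos allow). It was higher than Hnrnph2 in 12 of 13, by 6.89 ± 5.18 points, and higher than Gnl3l in 12 of 13, by 6.21 ± 5.65 points (exact adjusted p = 0.00513 for each). On log2 ratios these 3 pairs did not pass, and 5 others did: Fmr1, Rbmx and Rbm10 above Las1l, and Fmr1 and Rbmx above Hnrnph2. In order of mean share the genes ran Rbm10, Dkc1, Rbmx, Fmr1, Gnl3l, Hnrnph2, Las1l, and no 2 neighbours in that order differed beyond their spread (exact adjusted p between 0.330 and 0.867). Among 23 tested genes of the list of other X-linked RNA processing genes, 5 lay below the embryo median and 2 above it in limma, beside 12% and 11.3% of all 300 X-linked genes. Nono, a paraspeckle protein gene, was lowest at -3.18 ± 0.49, and Gpkow highest at 1.0 ± 0.11 (SE, n = 13; adjusted p = 0.000786 and 6.87e-05 in limma).

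The trophectoderm list of markers (Cdx2, Krt8, Krt18, Gata2, Eomes) summed to 3463 FPKM in trophectoderm and 1124 FPKM in ICM. In the ICM column this was above the ICM list itself (Nanog, Sox2, Tdgf1, Utf1, Gdf3), which summed to 643 FPKM in ICM and 53.5 FPKM in trophectoderm. The visceral endoderm list summed to 2693 FPKM in visceral endoderm and also to 233 FPKM in extraembryonic ectoderm, and the decidual list to 1.72 FPKM or less in each column. In yolk sac, the yolk sac list (Hbb-bh1, Hba-x, Hbb-y, Apoa1, Afp) summed to 4608 FPKM. Of its 5 genes, 3 reached 1 FPKM there, while Hba-x and Hbb-y were listed at 0. In EedmNull embryos, 4 X-linked trophoblast genes of a list of 5 summed to 25.9 to 243.6 FPKM, and the epiblast gene Slc7a3 had 0 to 1.04 FPKM. The X-linked blood genes Gata1 and Alas2 summed to 8.89 to 28.6 FPKM there, nearly all from Gata1 (8.59 to 27.8 FPKM), with Alas2 at 0 to 1.58 FPKM. In the stage table, normalized separately, their sum ran from 0 in yolk sac to 47.7 FPKM in morulae, with 11.1 FPKM in extraembryonic ectoderm. It was thus not read as a measure of blood. The part of other cell types in the shares was not tested.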

How the data were processed

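The authors deposited 3 tables of FPKM per allele and gene from Smart-seq2 libraries. Per the submitters' processing notes, Trim Galore 0.6.4, HISAT2 2.2.0, StringTie 2.1.1 and the assembly mm9 were used; the rule that assigned reads to alleles is not given in the sources used here. Both the stage and the morula table pool each group, and only the EedmNull table has a column per embryo; embryos are separate by label, and p-values measure the spread between them. The tables were normalized separately. 5 summary lines were left out.

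Totals are the sum of both alleles. The members and all gene lists were chosen with earlier results of these data known. Named were the 8 members, of the list of other X-linked RNA processing genes the 3 highest and 3 lowest share differences in morulae and the extremes in EedmNull embryos (Nono and Gpkow, chosen after their values were seen), the partners and relatives of a member described, the 2 nearest profiles for 4 members, and measured neighbours within 3 genes. Log2 ratios use FPKM + 1, which understates changes of low genes. EedmNull genes with a mean total of at least 1 FPKM were fitted with limma 3.58.1 (trend; R 4.3.3), adjusted by Benjamini-Hochberg over 300 genes. For these embryos, slopes of the maternal, paternal and total level, limma fits on shares (258 genes) and the median over genes of at least 10 FPKM were added after the data were seen. Sign flip tests used scipy 1.17.1, with pandas 2.3.3, numpy 2.4.6 and matplotlib 3.10.9 under Python 3.11.15. Scripts were tested on simulated data. Gene order, overlaps and promoters come from GRCm38.p6, not mm9, so no coordinates of the files were used. Alternatives covered the pseudocount, the minimum level, scaling and each embryo left out.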

Additional observations from a re-analysis of the deposited data

How the results depend on the processing

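No paired analysis was possible because the groups that share replicate numbers are pooled columns, and the EedmNull embryos form 1 group. For the allele ratio in EedmNull embryos, 2 genes passed, against 4 with a pseudocount of 0.1, 11 with no minimum, 7 at 5 FPKM or more and 28 without the trend (1 member, 0 in the others), and 2 to 206 genes with 0 to 6 members when each embryo was left out. Relative to the embryo median, 70 genes passed, against 45 with a pseudocount of 0.1, 5 with no minimum (0 members) and 45 at 5 FPKM or more, and 43 to 102 genes with 3 to 4 members without 1 embryo. At 5 FPKM or more, where fewer genes are tested, 169 ratio slopes, 154 maternal slopes and 166 paternal slopes passed, with all 7 members in each. Without 1 embryo, 271 to 281 ratio slopes (7 members), 206 to 238 maternal (6 to 7 members), 262 to 268 paternal (7 members) and 0 to 1 total slopes (0 members) passed. Of the pairs, 5 passed on log2 ratios and 3 to 4 without 1 embryo.

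Values that changed sign were not called in either setting: relative to the embryo median, Rbm10 was 0.13 at 5 FPKM or more, 0.28 and Rbmx 0.15 against a median over genes of at least 10 FPKM, and Rbm10 2.39 and Dkc1 1.84 points in shares. Total slopes near 0 did so too: Rbm10 was at -0.0028 with a pseudocount of 0.1, and when each embryo was left out the slopes lay between -0.0086 and 0.14 for Rbm10, -0.046 and 0.0067 for Hnrnph2 and -0.034 and 0.036 for Fmr1. The causes were not tested. The median share difference of Xp XRRa KO against control female morulae was 36.7 points (20.8 over X-linked genes). It was 20.2 points (17.6) over the 5 genes at 5 FPKM or more in both groups, and 33.1 points (24.6) against the stage table's morulae. Depth was unknown, so a 0 cannot be given a limit.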
